A study of Mus musculus with 36 samples.

Results

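The genes described here encode the parts by which basal keratinocytes hold on to the basement membrane: the hemidesmosome plaque proteins Dst and Plec, the integrin subunits Itga3, Itga5, Itga6, Itgb4 and Itgb6, and the laminin-332 chains Lama3 and Lamb3. They were chosen by symbol, 9 of the 55414 genes counted, and all 9 were among the 20657 genes that passed the filter on low counts. RNA was measured in 36 mouse skin libraries, of which 3 came from unwounded skin and 33 from wounds. The wounds belonged to 2 arms, called P and PD in the labels without the letters being spelled out. There were 5 P and 5 PD libraries at day 2 after injury, 5 and 6 at day 4, and 6 and 6 at day 12. The labels give no genotype, strain, age, sex or agent for any group, and the unwounded skin carries no arm. The series title concerns removal of senescent cells with high p21 and the speed of wound closure, so the comparisons ask what injury changed in these genes over time and whether the arms differed on a given day.

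Total counts in genes ran from 11807291 to 58375510 per library, and the lowest count of any of the 9 genes in a library was 191. Levels are given in CPM, the per-million scale, after scaling for library composition. A gene was called when its Benjamini-Hochberg adjusted p in edgeR's quasi-likelihood test, taken over all genes tested, was under 0.05. All 6 comparisons with uninjured skin share the same 3 control libraries, and nothing in the labels says whether libraries of a group came from separate animals, so p-values measure the spread between these samples. The tissue was whole skin: fewer cells of a type and less RNA per cell cannot be told apart. Defining genes of basal keratinocytes were present in every library, with 8 markers summing to between 3300 and 25600 CPM.

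The hemidesmosome is a rivet-like junction. Inside the cell, BP230 (from Dst) and plectin (from Plec) tie the keratin filaments Krt5 and Krt14 to the cytoplasmic tail of integrin alpha-6 beta-4. Outside, that integrin and the collagen Col17a1 bind laminin-332, whose chains include those encoded by Lama3 and Lamb3 and which is anchored in turn by collagen VII fibrils. When skin is cut, keratinocytes at the edge take these junctions apart, lay down fresh laminin-332 and crawl over a provisional matrix of fibrin and fibronectin with other integrins. Among these are alpha-5 beta-1, a fibronectin receptor that fibroblasts, endothelial cells and leukocytes also carry, and alpha-v beta-6, an epithelial receptor that activates latent TGF-beta.

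By day 12 most of the junction genes had fallen in both arms, and Itga5 had risen by day 2. Of the 9 genes, 1 was called higher and 3 lower in P wounds at day 2 than in uninjured skin, where 22.3% of all genes tested were called higher and 19% lower. At day 4 the counts in P wounds were 1 and 4, against 23.6% and 19.7% of all genes. By day 12 they were 1 and 6, against 23.7% and 20% of all genes. In PD wounds the numbers were 1 and 2 at day 2 (all genes 21% and 18.4%), 1 and 6 at day 4 (25.4% and 21.8%), and 1 and 7 at day 12 (24.2% and 20.7%). The gene that was higher was Itga5 each time. The median log2 change of the 9 went from -0.38 at day 2 to -0.63 and -1.33 in P wounds, and from -0.29 to -0.81 and -1.77 in PD wounds, while the median over all genes stayed between 0.02 and 0.10. These 9 were put together with earlier results in view, so their counts describe them and test nothing about the group.

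**Figure D1:**
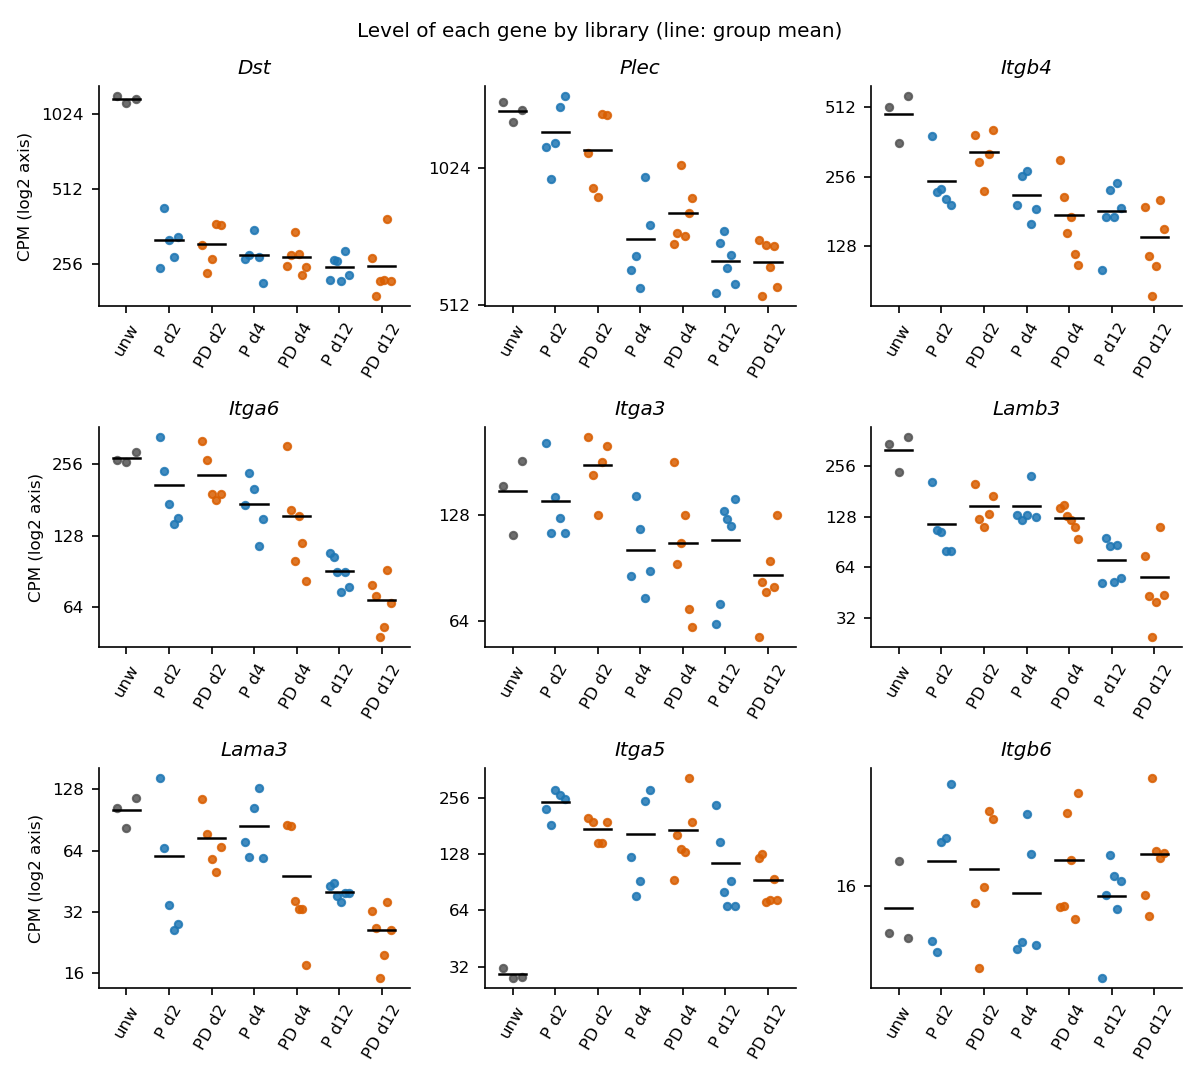
Level of each of the 9 genes in every library, in CPM on a log2 axis, for unwounded skin (unw) and P (blue) and PD (orange) wounds at days 2, 4 and 12 (d2, d4, d12). Points are libraries and lines group means; Dst lies near 1180 CPM in unwounded skin and under 430 CPM in all 33 wounds, whereas Itga5 lies near 29 CPM in unwounded skin and above 67 CPM in all wounds.

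Ranked per kilobase of exon, the level in uninjured skin was highest for Plec (75.6 CPM per kb), followed by Itgb4 (66.6), Lamb3 (39.0), Dst (26.1), Itga3 (25.8), Itga6 (23.8), Lama3 (7.83), Itga5 (5.50) and Itgb6 (1.96). In P wounds at day 12, Plec (35.4 CPM per kb) and Itgb4 (25.4) had the highest means. The means of Itga5 (21.5 CPM per kb, SD 12.2) and Itga3 (18.7, SD 5.73) did not differ beyond their spread: Itga5 was the higher in replicates 1 (43.6) and 2 (27.9) and Itga3 in the other 4. Below them in those day 12 wounds stood Lamb3 (8.63 CPM per kb), Itga6 (7.97), Dst (5.48), Lama3 (3.11) and Itgb6 (2.08). Dst, Itga3 and Itga6 lay close together in uninjured skin, with Itga3 spread by an SD of 6.14 CPM per kb over 3 libraries. The lengths take all annotated exons together, 45.1 kb for Dst, which has alternative epidermal, muscle and nerve forms, so a level per kb is an underestimate where only a short form is made.

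Dst (chromosome 1, 33946918 to 34347742, plus strand, GRCm39) encodes BP230, the plaque protein that clips keratin filaments to the hemidesmosome. Uninjured skin had 1212, 1141 and 1183 CPM. P wounds ranged from 245 to 428 CPM at day 2 (median 319), from 215 to 351 at day 4 (median 272) and from 218 to 288 at day 12 (median 247). PD wounds ranged from 234 to 369 CPM at day 2 (median 304), from 231 to 343 at day 4 (median 264) and from 190.0 to 387 at day 12 (median 219.9). No wound library came near the uninjured ones, and the 6 wound groups overlapped each other. On the log2 scale P wounds were lower by -1.89, -2.09 and -2.25 at days 2, 4 and 12, each with an SE of 0.18 or 0.19, and edgeR's adjusted p was at most 5.78e-09. PD wounds lay 3.82-, 4.33- and 4.69-fold below uninjured skin on those days. Under every alternative run, the log2 change of Dst against uninjured skin stayed between -2.39 and -1.80 over the 6 wound groups.

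Skeletal muscle and Schwann cells also use Dst. The 12 muscle markers, all present, summed to 77000 to 123000 CPM in uninjured skin and to 2990 to 85300 CPM in wounds, and 9 Schwann markers to 635 to 1070 against 110 to 583 CPM. In the PD wound with the highest muscle sum at day 4 (replicate 3, 83200 CPM), a value inside the range of uninjured skin, Dst was 343 CPM. Its counterpart at day 12 (PD replicate 3, 85300 CPM) had 218.5 CPM of Dst. The lowest uninjured level was 1141 CPM. These are 2 single libraries, and the part of muscle and Schwann cells in the fall was not tested.

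The first of 2 RefSeq start regions listed for Dst is printed here because Dst was the plaque gene with the larger fall. The listing does not say which of the 2 regions serves the epidermal form, BP230, so the printed one may belong to another form. The 250 bases before the start (chr1:34011345-34011594, plus strand, GRCm38.p6) held 4 GC boxes in capitals, the motif GGGCGG read on either strand.

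Dst: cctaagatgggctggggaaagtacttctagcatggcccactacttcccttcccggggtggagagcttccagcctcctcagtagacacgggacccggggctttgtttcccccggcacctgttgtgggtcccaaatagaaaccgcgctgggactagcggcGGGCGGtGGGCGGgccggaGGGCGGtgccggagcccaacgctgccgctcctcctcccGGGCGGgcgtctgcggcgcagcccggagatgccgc

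Such a GC box was found in 32.7% of the 32851 mouse promoter windows of that length. The Dst window held neither the AP-1 letters TGANTCA, found in 6.75% of windows, nor the TEAD letters GGAATG, found in 12.6%. The second listed region of Dst held none of the 3. A match here is a run of letters, not a measured site, and none of the 3 motifs contains another. RefSeq promoter windows were listed for 5 of the 9 genes.

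Plec (chromosome 15, 76055174 to 76116774, minus strand) encodes plectin, the larger linker between keratin and the beta-4 tail, which muscle and most other tissues also make. Uninjured skin had 1437, 1293 and 1380 CPM. At day 2 the 5 P wounds had 1144, 969, 1162, 1398 and 1478 CPM, and the 5 PD wounds 1106, 926.5, 884.5, 1352 and 1341 CPM. These ranges overlapped the uninjured one, and neither arm was called (log2 -0.16 and -0.29, adjusted p = 0.503 and 0.193). Day 4 wounds had 559 to 981 CPM (median 658) in P and 699 to 1043 (median 779) in PD, below every uninjured library. The fall was 1.91-fold in P (log2 -0.94, SE 0.17, edgeR adjusted p = 6.44e-05) and 1.68-fold in PD (log2 -0.74, SE 0.17, adjusted p = 0.000483). At day 12 it was 2.14-fold in P and 2.15-fold in PD.

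Dst was thus called from day 2 on and Plec from day 4 on, and the ratio of Plec to Dst counts within a library was higher in all 6 wound groups. The log2 ratio was 0.18 to 0.25 in uninjured skin and 1.18 to 2.36 in P wounds at day 2, with no overlap. That is a 3.34-fold higher ratio (exact permutation test, two-sided, p = 0.0179, the smallest that 5 against 3 libraries can give; adjusted p = 0.0499). At day 12 the ratio was 2.23-fold higher in each arm. This ratio and 5 others were chosen after the values had been seen, so the p-values of all 6 ratios are descriptive. They were adjusted over 78 tests of 6 ratios in 13 comparisons. With 1 library left out in turn, the exact permutation p of Plec to Dst reached 0.0571 in P wounds at day 2 and 0.0952 at day 4. Muscle marker sums had medians of 46700, 16000 and 11000 CPM in P wounds at days 2, 4 and 12 and of 30600, 27100 and 30400 in PD wounds, beside 98800 in uninjured skin. In the 2 PD wounds with muscle sums in the uninjured range, Plec was 1043 CPM at day 4 and 695.5 at day 12, beside a lowest uninjured value of 1293, and the part of muscle in the Plec fall was not tested.

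**Figure D2:**
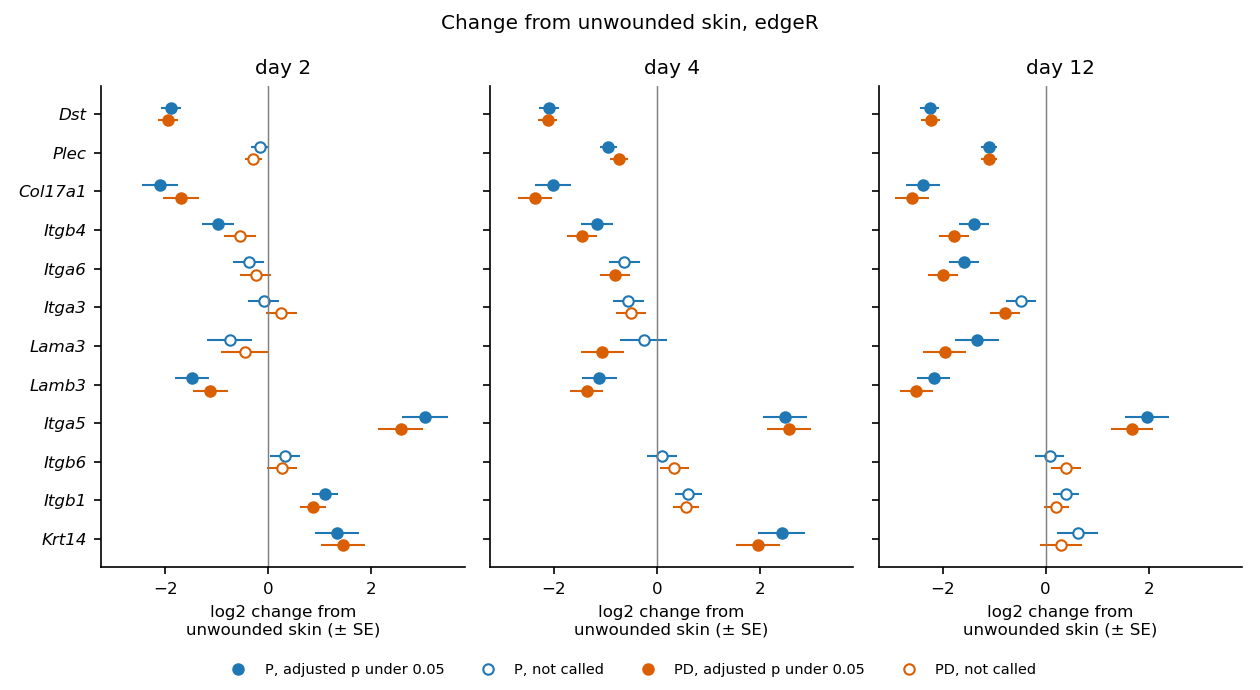
Log2 change from unwounded skin of the 9 genes and of Col17a1, Itgb1 and Krt14, with standard errors, at days 2, 4 and 12 in P (blue) and PD (orange) wounds. Filled points passed an edgeR adjusted p of 0.05 and open points did not. Of the 9 genes, only Dst and Lamb3 were called lower in all 6 groups and only Itga5 higher in all 6. Plec, Itgb4, Itga6, Lama3 and Col17a1 also lie left of zero in all 6 groups, and Itgb6 and Krt14 right of it.

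Itgb4 and Itga6 encode the integrin that spans the membrane in the hemidesmosome. Itgb4 (chromosome 11, 115865333 to 115899239, plus strand), whose long cytoplasmic tail binds plectin, had 512, 358 and 573 CPM in uninjured skin. In P wounds the values were 386, 221, 226, 205 and 193 CPM at day 2 and 193, 259, 270.5, 160.5 and 185 at day 4. PD wounds had 389.8, 298, 222, 321 and 408 CPM at day 2 and 302, 209, 146, 172, 118 and 106.5 at day 4. By day 12, P wounds ranged from 102 to 242 CPM (median 179.5) and PD wounds from 78.1 to 204 (median 134). At day 2 the ranges still overlapped the lowest uninjured library, and from day 4 on they did not.

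Against uninjured skin, Itgb4 was 1.95-fold lower in the P wounds of day 2 (log2 -0.97, SE 0.31, edgeR adjusted p = 0.012). The PD wounds of that day were not called (log2 -0.55, adjusted p = 0.158). It was 2.25- and 2.74-fold lower at day 4 and 2.63- and 3.41-fold lower at day 12 in P and PD. The day 2 call in P wounds was lost without uninjured replicate 1 (log2 -0.89, adjusted p = 0.0546) or replicate 3 (log2 -0.78, adjusted p = 0.0881).

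Itga6 (chromosome 2, 71575960 to 71689757, plus strand), the alpha partner, which also pairs with beta-1 and is found on endothelium, had 266, 261 and 286.5 CPM in uninjured skin. It was called lower in P wounds at day 12 only and in PD wounds from day 4 on. Day 2 wounds ranged from 144 to 333 CPM in P (median 174) and from 181 to 320.0 in PD (median 192), overlapping uninjured skin, and neither arm was called (log2 -0.38 and -0.24, adjusted p = 0.333 and 0.568). At day 4 the 5 P wounds had 116 to 235 CPM (median 172), all lower, but missed the threshold (log2 -0.63, adjusted p = 0.0884). The 6 PD wounds had 305, 165, 100.4, 154, 119 and 82.1 CPM, of which replicate 1 was above every uninjured library. They were called (log2 -0.81, SE 0.29, adjusted p = 0.0212), a call lost in 6 of 20 alternatives, among them each in which 1 uninjured library was left out.

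At day 12 the Itga6 range was 74.0 to 109 CPM in P wounds (median 89.8) and 48.0 to 91.6 in PD wounds (median 69.0), far below uninjured skin. This was 2.99-fold lower in P (log2 -1.58, SE 0.29, edgeR adjusted p = 5.3e-05) and 3.96-fold lower in PD (log2 -1.99, SE 0.29, adjusted p = 2.13e-06). Between day 4 and day 12 Itga6 fell 1.93-fold in P wounds and 2.26-fold in PD wounds (adjusted p = 0.00658 and 0.000381). The ratio of Itga6 to Itgb4 counts was 1.70-fold lower at day 12 than at day 4 in PD wounds, with no overlap (exact permutation p = 0.00216, adjusted p = 0.0499). In P wounds it was 1.59-fold lower with overlap and missed the threshold (exact permutation p = 0.039, adjusted p = 0.078). Against uninjured skin the day 12 log2 difference of this ratio was -0.17 in P wounds and -0.20 in PD wounds (exact permutation tests, adjusted p = 0.801 and 0.44). At days 2 and 4 it was 0.29 to 0.57 over both arms (exact permutation tests, adjusted p = 0.0599 to 0.402). A later fall of Itga6 than of Itgb4 was thus not established.

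Laminin-332 is the ligand. Lamb3 (chromosome 1, 192890007 to 193027705, plus strand), its beta chain, had 345, 235 and 381.5 CPM in uninjured skin. At day 2 the 5 P wounds had 206, 107, 104, 80.0 and 79.9 CPM and the 5 PD wounds 199, 124, 111, 133 and 170 CPM. Day 4 gave 132, 123, 130.3, 225 and 127 CPM in P, and 144, 151, 129, 122, 112 and 94.0 in PD. At day 12 the range was 51.5 to 95.25 CPM in P (median 70.4) and 24.65 to 111 in PD (median 43.5). All 33 wounds lay below the lowest uninjured library, and the day 12 wounds lay lowest.

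Lamb3 was 2.78-fold lower in P wounds at day 2 (log2 -1.47, SE 0.33, edgeR adjusted p = 0.000669), 2.18-fold lower at day 4 and 4.52-fold lower at day 12 (log2 -2.17, SE 0.32, adjusted p = 2.85e-06). In PD wounds the falls were 2.17-, 2.56- and 5.71-fold. From day 4 to day 12 it fell 2.07-fold in P and 2.23-fold in PD (adjusted p = 0.00679 and 0.00145). Without uninjured replicate 3 the calls for P wounds at day 4 (log2 -0.92, adjusted p = 0.0585) and PD wounds at day 2 (log2 -0.90, adjusted p = 0.0709) were lost.

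The upstream RefSeq start region of Lamb3 (chr1:193301744-193301993, plus strand, GRCm38.p6) is shown as a counterpart to that of Dst, since both genes were called lower in all 6 wound groups. It held 0 matches to the 3 motifs, so all letters are in lower case, which says only that these letters are not in this window. The adjoining second region listed for Lamb3 held 1 TEAD match and neither of the others.

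Lamb3: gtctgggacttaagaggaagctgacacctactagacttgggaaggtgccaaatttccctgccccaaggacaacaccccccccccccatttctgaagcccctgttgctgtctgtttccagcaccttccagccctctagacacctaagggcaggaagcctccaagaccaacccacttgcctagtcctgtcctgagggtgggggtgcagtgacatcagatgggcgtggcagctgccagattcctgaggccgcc

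Lama3 (chromosome 18, 12466876 to 12717747, plus strand) encodes the alpha-3 chain, the part of laminin-332 that integrins bind. Uninjured skin had 104, 82.3 and 117 CPM. P wounds at day 2 spread widely, at 146, 65.8, 34.4, 25.96 and 27.8 CPM, and PD wounds had 115, 77, 58.15, 50.04 and 66.8 CPM. Day 4 values were 70.9, 59.2, 104, 130.2 and 58.9 CPM in P wounds and 85.2, 84.2, 36.3, 33.1, 33 and 17.5 in PD wounds. At day 12 all P wounds had 35.6 to 44.3 CPM (median 39.7) and all PD wounds 15.1 to 35.7 (median 26.4). Only the day 12 groups lay wholly below uninjured skin.

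Accordingly, Lama3 was called lower at day 12, by 2.52-fold in P (log2 -1.33, SE 0.42, edgeR adjusted p = 0.0113) and 3.89-fold in PD (log2 -1.96, SE 0.42, adjusted p = 0.000423). PD wounds at day 4 were called as well (log2 -1.06, adjusted p = 0.0386), with 10 of 20 alternatives ending that call. P wounds were not called at day 2 or day 4 (log2 -0.75 and -0.26, adjusted p = 0.18 and 0.67). The P call at day 12 was lost without uninjured replicate 3 (log2 -1.14, adjusted p = 0.0651).

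Set against its receptor within a library, the beta chain lay below its uninjured level at days 2 and 12. The log2 ratio of Lamb3 to Itgb4 counts was -0.61 to -0.57 in uninjured skin. At day 2 it was 1.47-fold lower in P wounds (-1.36 to -0.90) and 1.48-fold lower in PD wounds (-1.27 to -0.97), both without overlap (exact permutation tests, two-sided, p = 0.0179 each, adjusted p = 0.0499). At day 4 both arms overlapped uninjured skin, with log2 differences of 0.04 and 0.17 (exact permutation p = 0.821 and 0.405). At day 12 it was 1.71-fold lower in P wounds (adjusted p = 0.0733, exact permutation test) and 1.78-fold lower in PD wounds (adjusted p = 0.0499), again without overlap. These ratios do not depend on the scaling of the libraries.

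**Figure D3:**
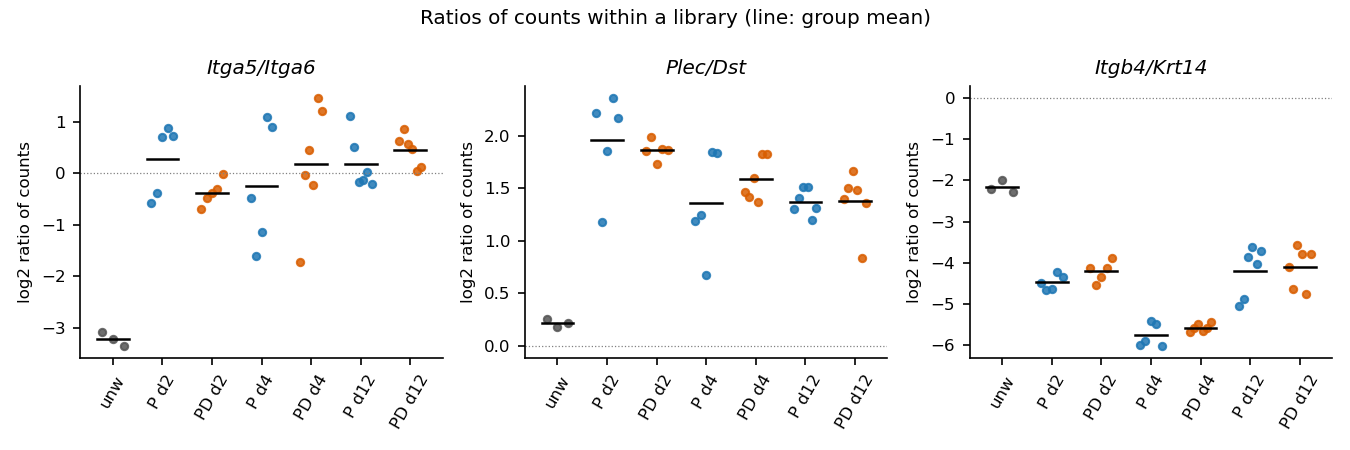
Log2 ratios of counts within each library for 3 pairs of genes, by group, with points for libraries and lines for group means. Itga5 to Itga6 lies below -3 in unwounded skin and above -2 in wounds, Plec to Dst is higher in all wounds, and Itgb4 to Krt14 is lowest at day 4.

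Itga5 (chromosome 15, 103252713 to 103275270, minus strand), the alpha chain of the fibronectin receptor, was the 1 gene of the 9 that rose. Uninjured skin had 31.6, 27.9 and 28.2 CPM. P wounds at day 2 had 223, 183, 281.5, 264 and 252 CPM, and PD wounds 199, 189, 147, 146 and 189. At day 4 the P wounds had 123, 76.7, 91.4, 246 and 280.0 CPM and the PD wounds 92.7, 162, 137, 131, 325 and 189. By day 12 the ranges were 67.4 to 232 CPM in P (median 85.9) and 70.9 to 129 in PD (median 83.4). Every wound lay above the highest uninjured library.

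Itga5 was 8.23-, 5.59- and 3.92-fold higher in P wounds at days 2, 4 and 12 than in uninjured skin, with edgeR adjusted p-values of 2.75e-06, 3.57e-05 and 0.000334 and log2 standard errors of 0.42 to 0.45. In PD wounds the rise was 5.95-, 5.90- and 3.20-fold. The fall from day 4 to day 12 was called in PD wounds (log2 -0.89, adjusted p = 0.0274, lost in 9 of 23 alternatives) and not in P wounds (log2 -0.51, adjusted p = 0.26).

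Other cells that carry Itga5 changed too. The 8 fibroblast markers summed to 1150 to 2510 CPM in uninjured skin and 1120 to 86900 CPM in wounds. The 8 monocyte and macrophage markers summed to 132 to 345 CPM in uninjured skin, to 1740 to 6510 in all wounds of days 2 and 4, and to 157 to 1840 at day 12. The 9 endothelial markers summed to 324 to 468 against 203 to 945 CPM. All markers of these lists were found in the files, and their part in the rise of Itga5 was not tested.

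The only RefSeq start region listed for Itga5 (chr15:103366792-103367041, minus strand, GRCm38.p6) is printed because it belongs to the single gene that rose. Capitals mark its 2 GC boxes, here as CCGCCC, and it held no AP-1 or TEAD letters.

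Itga5: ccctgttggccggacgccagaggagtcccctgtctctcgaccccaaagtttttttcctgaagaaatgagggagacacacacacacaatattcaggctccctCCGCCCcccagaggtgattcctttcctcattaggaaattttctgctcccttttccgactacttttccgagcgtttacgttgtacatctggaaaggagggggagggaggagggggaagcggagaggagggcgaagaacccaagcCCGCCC

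In whole skin, the balance of RNA between the fibronectin receptor chain and the hemidesmosome chain shifted as well. Cells other than keratinocytes carry each chain, and their part in the ratio was not tested. Itga5 counts were far below Itga6 counts in uninjured skin (log2 ratio -3.34 to -3.07), and in wounds the log2 ratio lay between -1.72 and 1.45. The ratio was 11.2-, 7.80- and 10.6-fold higher in P wounds at days 2, 4 and 12 and 7.12-, 10.5- and 12.6-fold higher in PD wounds, with no overlap in any group. Exact permutation tests gave adjusted p = 0.0499 in 5 groups, each from the smallest p that its numbers of libraries can give. This ratio too was chosen after the values had been seen. The exact permutation test of P wounds at day 4 gave p = 0.0357 and adjusted p = 0.0733.

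Itga3 and Itgb6 moved least. Itga3 (chromosome 11, 94935296 to 94967682, minus strand) encodes the alpha chain of the laminin-332 receptor used by migrating keratinocytes, and had 155, 112 and 183 CPM in uninjured skin. P wounds ranged from 113.5 to 206 CPM at day 2, 74.0 to 145 at day 4 and 62.5 to 143 at day 12, and PD wounds from 128 to 214, 61.2 to 181 and 57.5 to 128. All 6 ranges overlapped uninjured skin. PD wounds at day 12 were the 1 group called, 1.73-fold lower (log2 -0.79, SE 0.29, edgeR adjusted p = 0.024), and 5 of 20 alternatives ended that call. The other 5 groups had log2 changes from -0.56 to 0.25 (adjusted p = 0.131 to 0.831).

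Itgb6 (chromosome 2, 60428636 to 60553035, minus strand), the beta chain of the TGF-beta activating integrin, is known as scarce in resting epidermis. Uninjured skin had 12.6, 18.1 and 12.3 CPM, and wounds 10.1 to 27.5 CPM. None of the 6 groups was called, with log2 changes from 0.08 to 0.39 and standard errors of 0.28 to 0.29 (adjusted p = 0.271 to 0.831). Its partner chain Itgav was not called either (log2 -0.54 to 0.43), whereas Tgfb1, which encodes the latent factor this integrin activates, rose 2.63- to 5.47-fold in all 6 groups.

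The other hemidesmosome and anchoring genes were a list of 8: Col17a1, Cd151, Krt5, Krt14, Col7a1, Fermt1, Tns4 and Erbin. In P wounds 1, 1 and 0 of them were called higher at days 2, 4 and 12, and 4, 3 and 3 lower. In PD wounds 1, 1 and 0 were called higher and 3, 3 and 4 lower. Their median log2 change ran from -0.98 to -0.30 in P wounds and from -0.70 to -0.35 in PD wounds. Over all genes that median was 0.02 to 0.10. The shares of all genes called in the wound groups were 21% to 25.4% higher and 18.4% to 21.8% lower. This list was drawn up with earlier results of these data known, so its counts describe it and test nothing.

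Col17a1, the transmembrane collagen of the hemidesmosome (BP180), had 2894, 2059 and 3336 CPM in uninjured skin and 189.8 to 1168 CPM in wounds. It was 3.23- to 6.03-fold lower in the 6 groups, none overlapping (adjusted p at most 0.00024). Tns4, an adaptor on integrin tails, was 2.44- to 4.34-fold lower, and Fermt1, the epidermal kindlin that activates integrins, 1.76- to 2.72-fold lower, both called in all 6. Col7a1, the anchoring fibril collagen, was called lower in P wounds at day 2 (2.75-fold, adjusted p = 0.0189) and in no other group; it was picked out after its values were seen.

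The basal keratins moved in different directions. Krt14 had 2365, 1415 and 2812 CPM in uninjured skin and rose 2.53- and 5.35-fold in P wounds at days 2 and 4 and 2.73- and 3.90-fold in PD wounds. At day 12 it was not called (log2 0.62 and 0.30, adjusted p = 0.216 and 0.56). Without uninjured replicate 2 the day 2 calls of Krt14 were lost (adjusted p = 0.0818 in P and 0.0535 in PD). Krt5, its partner, was called in PD wounds at day 12 only (1.85-fold lower, adjusted p = 0.0197). Krt15, another basal keratin, picked out after its values were seen, fell in all 6 groups, by 8.28-, 8.25- and 5.56-fold in P wounds and 5.16-, 7.41- and 6.17-fold in PD wounds at days 2, 4 and 12.

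Measured against Krt14 within a library, Itgb4 was lowest at day 4. The log2 ratio of Itgb4 to Krt14 counts averaged -2.16 ± 0.16 (SD, n = 3) in uninjured skin. In P wounds it averaged -4.48 ± 0.19 (n = 5) at day 2, -5.77 ± 0.29 (n = 5) at day 4 and -4.20 ± 0.62 (n = 6) at day 12. PD wounds had -4.21 ± 0.25 (n = 5), -5.58 ± 0.10 (n = 6) and -4.11 ± 0.49 (n = 6). Day 4 lay wholly below day 2 and below day 12 in both arms (exact permutation p = 0.00216 to 0.00794, adjusted p = 0.0499 for each of the 4 tests). The basal keratinocyte marker sums, of which Krt14 and Krt5 are part, were 12400 to 20700 CPM in uninjured skin, 8960 to 15800 and 13300 to 25600 CPM in P wounds at days 2 and 4, and 6100 to 12300 at day 12. In PD wounds those sums were 9970 to 15800, 10200 to 24600 and 3300 to 14700 CPM. At day 4 the basal marker sums overlapped uninjured skin in both arms. Those sums include Krt14, whose mean was 2197 CPM in uninjured skin and 11750 and 8571 CPM in P and PD wounds at day 4. Sums without Krt14 were not computed, so the overlap does not show that basal cells were kept. Itgb4, Lamb3 and Dst did not overlap uninjured skin at day 4. At day 12 all P wounds lay below the uninjured range of the sums as well. Taken singly, 1 of the 8 basal markers was called higher in each wound group. At days 2, 4 and 12, the counts lower were 5, 3 and 5 in P wounds and 5, 5 and 6 in PD wounds. The shares over all genes were 21% to 25.4% higher and 18.4% to 21.8% lower. The part of basal cell number in the falls of the junction genes was not tested.

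Around the junction, other genes of adhesion were counted from lists by role, which were drawn up with earlier results of these data known. Their counts describe the lists and test nothing about them. Over all genes, 21% to 25.4% were called higher and 18.4% to 21.8% lower in the 6 wound groups. Of 17 other laminin and basement membrane genes, 0, 2 and 6 were called higher and 3, 5 and 3 lower in P wounds at days 2, 4 and 12. The PD counts were 0, 2 and 4 higher and 4, 5 and 4 lower. Lama1, the alpha-1 laminin chain, fell from 23.1 ± 0.603 CPM (SD, n = 3) by 7.56-fold in P wounds at day 2 and 16.4-fold at day 12. Lamb2 fell 1.95-fold at day 2 and Frem2, a basement membrane adhesion protein, 4.09-fold, while its relative Frem1 rose 7.04-fold in P wounds at day 12 and 7.89-fold in PD wounds.

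Of 14 other integrin subunits, 5, 3 and 4 were called higher and 3, 3 and 2 lower in P wounds. In PD wounds 4, 4 and 3 were higher and 2, 3 and 2 lower. These counts lay near the shares over all genes, 21% to 25.4% higher and 18.4% to 21.8% lower. Itgb1, the common partner of alpha-3, alpha-5 and alpha-6, had 232, 280 and 206.5 CPM in uninjured skin and rose at day 2, by 2.14-fold in P wounds and 1.83-fold in PD wounds (edgeR adjusted p = 0.00119 and 0.00829). At day 4 it lay above every uninjured library in both arms but was not called (log2 0.61 and 0.56, adjusted p = 0.0557 and 0.0683). Itga7, a laminin receptor of muscle, rose 5.15-fold in P wounds and 4.73-fold in PD wounds at day 2. Itga2, a collagen receptor of keratinocytes, fell 3.05-fold in P wounds and 3.61-fold in PD wounds at day 12, and Itga8 and Itga9 were lower and higher in all 6 groups.

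Among ligands of the provisional matrix, of 10 tested from a list of 11, 7, 5 and 5 were called higher in P wounds at days 2, 4 and 12 and 6, 5 and 5 in PD wounds, with at most 1 lower. The shares over all genes were 21% to 25.4% higher and 18.4% to 21.8% lower. Tenascin-C was called higher in all 6 groups. Thbs1, thrombospondin-1, rose 48.2-fold in P wounds at day 2 and 23.4-fold in PD wounds. Spp1, osteopontin, rose 296- and 157-fold on that day. Fn1, fibronectin, the ligand of the receptor that contains Itga5, had 111 ± 51.5 CPM (SD, n = 3) in uninjured skin and rose 9.19-fold in P wounds and 7.07-fold in PD wounds at day 12. Its rises at days 2 and 4, added after the values were seen, were 10.3- and 5.16-fold in P wounds and 4.64- and 4.76-fold in PD wounds.

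Of 9 proteases and convertases that cut laminin-332 or integrins, 5, 6 and 5 were called higher in P wounds and 4, 5 and 5 in PD wounds, with 0 lower. For these and for the linkers below, the shares over all genes were 21% to 25.4% higher and 18.4% to 21.8% lower. Mmp14, a membrane protease that clips laminin-332, rose 3.52-fold in P wounds at day 2 and 6.97-fold at day 12. Bmp1, which trims laminin-332 chains, rose 4.16-fold in P wounds and 3.57-fold in PD wounds at day 12. Furin, which cleaves integrin alpha chains, rose 2.20-fold in P wounds at day 2 and 1.54-fold at day 12. Of 16 adhesion linkers, 6, 4 and 6 were called higher and 2, 3 and 3 lower in P wounds, and 6, 6 and 5 higher and 2, 3 and 3 lower in PD wounds. Fermt3, the kindlin of blood cells, rose 6.93-fold and Zyx, zyxin, 3.65-fold in P wounds at day 2, while Tns1, tensin-1, fell 2.60-fold at day 4.

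Between successive days the changes were fewer. In P wounds from day 2 to day 4, 0 of the 9 genes were called higher and 1 lower, against 5.76% and 2.7% of all genes. The 1 was Plec (1.72-fold, adjusted p = 0.00175). From day 4 to day 12 in P wounds 0 were higher and 3 lower, against 11.2% and 12.6% of all genes. These were Itga6, Lama3 (2.11-fold, adjusted p = 0.0349, lost in 8 of 22 alternatives) and Lamb3, and for each of the 3 genes the day 12 wounds lay wholly below those of day 4. In PD wounds from day 2 to day 4, 0 were higher and 1 lower, against 2.67% and 1.59%. Here the gene was Itgb4 (1.87-fold, adjusted p = 0.0408), with 11 of 22 alternatives ending the call. From day 4 to day 12 in PD wounds 0 were higher and 4 lower, against 15.7% and 15.6%. These were Itga6, Lamb3, Itga5 and Plec (1.28-fold, adjusted p = 0.0459, lost in 12 of 23 alternatives). Krt14 also fell in that interval, by 3.48-fold in P wounds and 3.18-fold in PD wounds.

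The arms were not told apart by these genes. In PD against P wounds 0 of the 9 were called at day 2, day 4 or day 12, for the mean over days, or for the change in the difference between successive days. In each of these comparisons 0% of all 20657 genes were called by edgeR. At an unadjusted p under 0.05 there were 793, 2369 and 1022 genes on the 3 days and 2488 for the mean, of which 0, 1, 0 and 0 were among the 9. The changes in the difference gave 1472 and 623 genes at that level, with 0 of the 9. DESeq2 called 7 genes higher and 17 lower at day 2, 12 and 172 at day 4, 0 at day 12, and 16 and 88 for the mean. limma-voom with sample weights called 0 and 1 at day 2, 975 higher and 1081 lower at day 4, 0 at day 12, and 1 and 0 for the mean. None of the 9 was among these. For the changes in the difference DESeq2 called 7 and 71 genes between days 2 and 4 and 86 and 3 between days 4 and 12, with 0 of the 9. limma-voom called 1417 and 1380, then 0 and 1, and the first of these sets held Plec, Itga6, Itgb4, Itgb6 and Lama3.

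The largest difference between arms was that of Lama3 at day 4: PD wounds had 17.5 to 85.2 CPM and P wounds 58.9 to 130.2, which overlap. PD was lower by 0.81 on the log2 scale (95% interval -1.57 to -0.04, unadjusted p = 0.0381, adjusted p = 0.412). At day 12 Lama3 was 26 ± 7.67 CPM (SD, n = 6) in PD and 40.1 ± 3.12 (n = 6) in P wounds, a log2 difference of -0.63 (95% interval -1.36 to 0.11, edgeR adjusted p = 0.884). At day 2 the difference was 0.29 (95% interval -0.51 to 1.09). The 9 wound keratinocyte markers summed at day 4 to 8920 to 22300 CPM in P wounds (median 17200) and 2100 to 27700 in PD wounds (median 5060). At day 12 the sums were 3260 to 6380 CPM in P wounds (median 4130) and 1240 to 3970 in PD wounds (median 2550). The arms overlapped on both days. Of these markers, Sprr2d was at 0 in all 3 uninjured libraries. The part of wound keratinocytes in the Lama3 difference was not tested.

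For the other genes the intervals bound what could have been missed. Dst differed by -0.05, -0.02 and 0.02 on the log2 scale at the 3 days, and its widest interval ran from -0.39 to 0.29. Plec had differences of -0.13, 0.19 and -0.01, with intervals between -0.44 and 0.49. Itgb4 was 0.41 at day 2 (interval -0.14 to 0.97), -0.28 at day 4 and -0.38 at day 12 (interval -0.88 to 0.13). Itga5 was -0.47 at day 2 (interval -1.16 to 0.22), 0.08 at day 4 and -0.29 at day 12. Intervals for Itga3, Itga6, Itgb6 and Lamb3 all included 0 and reached at most 0.96 in either direction.

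**Figure D4:**
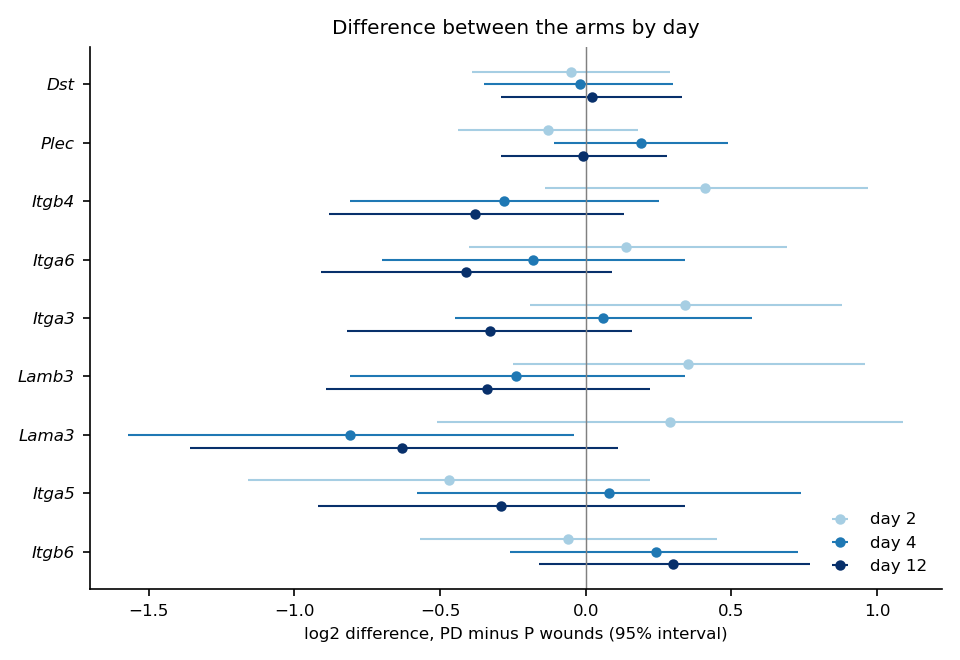
Difference between PD and P wounds on the log2 scale for each of the 9 genes at days 2, 4 and 12, with 95% intervals from the edgeR standard errors. All intervals include 0 except that of Lama3 at day 4 (-1.57 to -0.04), whose adjusted p was 0.412.

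Within groups the integrin and laminin genes Itga6, Itgb4, Lama3 and Lamb3 varied together, and the plaque genes followed them less closely. After group means were removed, Pearson's r over the 36 libraries was 0.74 for Itga6 and Lama3 and 0.72 for Lama3 and Lamb3. It was 0.70 for Itgb4 and Lamb3, 0.69 for Itga6 and Itgb4, 0.63 for Itgb4 and Lama3 and 0.50 for Itga6 and Lamb3. Outside these 4 genes, it was 0.68 for Itga3 and Itgb4. It was negative for Itga3 and Itga5 (-0.68) and for Itga6 and Itgb6 (-0.62), and near 0 for Dst and Itga3 (0.01). Plec had -0.50 with Itga6, -0.25 with Lama3, -0.06 with Itgb4 and 0.24 with Lamb3, and Dst had 0.08, 0.11, 0.36 and 0.42 with the same genes. Dst and Plec had 0.26 with each other. These values are descriptions: the genes share each library, its depth and its share of epidermis.

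Some libraries stood out within their groups, and the correlations were not recomputed without them. In P wounds at day 2, replicate 1 was highest for Itgb4 (386 CPM), Lamb3 (206), Lama3 (146) and Itga6 (333) and had a wound keratinocyte sum of 14800 CPM, with a group median of 3360. Without it Lama3 was called lower (log2 -1.39, edgeR adjusted p = 0.00609) and 5 of the 9 genes were called in that comparison in place of 4. In PD wounds at day 4, replicate 1 likewise had the highest Itga6 (305 CPM) and the highest wound keratinocyte sum (27700 CPM, median 5060). Without that library Itga6 was lower by 1.13 on the log2 scale (adjusted p = 0.000616) and 8 genes were called in place of 7.

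Over all 36 libraries and 15405 genes of at least 1 CPM, the closest pattern to Itgb4 was that of its junction partner Col17a1 (Pearson's r = 0.92), then the syndecan Sdc4 (0.90) and Tns4 (0.89). Lamb3 was most like Mst1r (0.91), the MSP receptor gene, and Lama3 most like Itga2 and Anxa1 (0.87 each). Dst was most like Slc2a12 (0.95), Sun1 (0.93) and Gid4 (0.91), and Plec like Dusp26 and Lpin1 (0.90 each) and Wipf3 (0.89). Itga5 was most like Lasp1, Pdpn and Lhfpl2 (0.95 each), Itga6 like Gnai1 and Cav2 (0.92 each), Itga3 like Mettl16 (0.82) and Itgb6 like Hsf4 (0.85). The difference between uninjured skin and wounds enters each of these values.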

How the data were processed

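The authors deposited whole-number read counts per gene for each library, without normalization. The submitters' processing notes name Trimmomatic, the aligner HISAT2 2.1.0, SAMtools 1.9, the counter HTSeq and the build GRCm39. Library preparation was stranded, per the labels' protocols. The strand setting and annotation release of the counting are not given in the sources used here, which leaves more doubt about the 8 genes other than Itga5, since each overlaps an opposite-strand gene.

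Counts were TMM scaled and fitted with edgeR 4.0.16 (R 4.3.3, quasi-likelihood, robust) as 7 group means over 36 libraries, after filterByExpr (minimum count 10, minimum total 15). Positions and exon lengths came from a GENCODE annotation of GRCm39 that held 98.8% of the gene identifiers. The 95% intervals use the edgeR standard errors and are approximate. The code was tested on simulated data, with the changed genes drawn at random from all tested. For PD against P wounds at day 4, 40% of 2-fold and 63% of 4-fold changes were recovered. For P wounds at day 12 against unwounded skin the shares were 47% and 71%. In these simulations 100 genes per fold size were changed among 20657. The real comparison of P wounds at day 12 called 4890 genes higher and 4138 lower. The adjusted p depends on how many genes change, so the simulated shares do not give the recovery against unwounded skin. Recovery was not computed for the genes described here. A gene that was not called may still have changed. No 2 replicates looked like 1 library (smallest chi-square per degree of freedom 13.4).

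The 9 genes and all lists were chosen with earlier results of these data known. Named are the 9 genes, 5 partners, up to 4 genes per list with the lowest adjusted p at 1 CPM or more, and the 3 most alike genes; a subset is printed, and 1 further partner is not reported here. Alternatives were DESeq2 1.42.0 size factors or Wald test, limma-voom (limma 3.58.1), no composition factor, scaling without muscle, fat, hair and blood genes, no filter, a minimum count of 50, robust fitting off, the replicate block, 2 surrogate variables (sva 3.50.0), only the libraries compared, and each library left out.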

Additional observations from a re-analysis of the deposited data

Results flagged for a closer look

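In 54 sets of libraries, each 1 gene of the 9 in 1 wound group, the extreme library was compared with the rest by Dixon's ratio of gap to range, which chance exceeds in about 1 of 20 sets. Itga6 in PD wounds of day 4 was 305 CPM in replicate 1 and 82.1 to 165 in the others. Itgb4 in P wounds of day 2 was 386 CPM in replicate 1 and 193 to 226 in the others. Lamb3 in P wounds of day 2 was 206 CPM in the same library and 79.9 to 107 in the others. Lamb3 in P wounds of day 4 was 225 CPM in replicate 4 and 123 to 132 in the others. These 4 flags in 54 sets are not far from the share that chance gives. Each of the 4 was high, and leaving out the highest library of a wound group makes the fall larger in itself. The log2 change from unwounded skin became -1.13 in place of -0.81 for Itga6 and -1.19 in place of -0.97 for Itgb4. For Lamb3 it became -1.79 in place of -1.47 at day 2 and -1.26 in place of -1.12 at day 4.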

How the results depend on the processing

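Of 2090 values for 112 gene and ratio results, 1964 kept direction and side of the threshold, 77 lost a call, 42 gained one and 7 changed sign. Limma-voom called more of the 9 genes: 7 and 8 for P wounds against unwounded skin at days 2 and 4, 5 for PD wounds at day 2, 4 and 5 for day 4 against day 2 in P and PD, and 5 for the change in PD minus P from day 2 to day 4; the cause was not tested. In PD wounds, day 4 against day 2 gave 2 genes without a composition factor or by DESeq2 and 0 without a filter (more genes tested) or with only the libraries compared. Day 12 against day 4 gave 2 without a composition factor or filter. Without a composition factor the median of all genes at day 12 against unwounded skin moved from 0.09 to 0.33 in PD wounds, and the split of calls from 5006 higher and 4276 lower to 6734 and 2657.

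Leaving out each library in turn gave 1 to 2 genes for day 4 against day 2 in P, 0 to 3 in PD, and 2 to 4 for day 12 against day 4 in PD. The 2 in P came without day 2 replicate 1 and added Lama3. In PD, 3 came without day 4 replicate 1 and 0 without day 4 replicate 4, 5 or 6 or day 2 replicate 1, 2, 4 or 5. For PD day 12 against day 4, 2 came without day 12 replicate 4, 5 or 6.

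Against unwounded skin, signs changed for Itga3 in P day 2 (-0.27 to 0.11 with a library left out, the latter without unwounded replicate 3), Itgb6 in P day 4 (-0.06 by limma-voom; -0.08, without P replicate 3, to 0.35) and Krt14 in PD day 12 (-0.27 by limma-voom). Itgb6 in PD against P at day 4 was -0.02 with 2 surrogate variables. With the replicate block, Itgb6 in P wounds was -0.09 at day 4 and -0.13 at day 12. Same-numbered libraries deviated together in 49 of 96 pairs (r over 0.1, range -0.25 to 0.54), and in 1 of 21 pairs of groups throughout. Differently numbered libraries were not compared, so whether the numbers pair some samples was not settled. The replicate block ended 0 calls and added 3.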
